A study of Homo sapiens with 12 samples.

Results

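Genes that a DAOY line appeared to have lost were followed, 10 in all: C3orf14, PID1, NAA11, FOXR2, HCLS1, CPXM2, TMEM179, EEF1A2, COLEC12 and PLAC8. They were chosen by their measured TPM, with the values known, as near absent in all 4 libraries of one line and present in another, and they are 10 of the 63677 gene identifiers in the tables, all protein-coding and all above the filter of a mean of 1 TPM that 17621 genes passed. TPM is a read count divided by gene length and scaled to a fixed sum per library. DAOY is a human medulloblastoma cell line, a tumour of the cerebellum. The lines were NOTCH2KO and NOTCH1KO, in which CRISPR/Cas9 was used to inactivate the receptor gene, and WT, the control DAOY cells. Each line gave 4 libraries from cells on plates coated with the Notch ligand Jagged1 or with the control fragment Fc, each with the γ-secretase inhibitor DAPT for 12 h or with its solvent DMSO. All cells grew in the same medium with serum. The labels and methods do not say whether a knockout line was grown from 1 clone or from several. There was 1 library for each line and culture (n = 12), so the 4 libraries of a line stand for 4 cultures of 1 line, and a difference between lines cannot be told apart from a difference between the cells the lines were grown from.

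The targeted genes followed the labels at the RNA level to different degrees. NOTCH1 averaged 0.565 TPM in NOTCH1KO, 3.96 in NOTCH2KO and 3.19 in WT, and NOTCH2 averaged 50.7 TPM in NOTCH2KO, 103 in NOTCH1KO and 80.7 in WT. The libraries held 18.3 to 22.4 M reads, and a single read over 1 kb of transcript equalled 0.0947 to 0.117 TPM. HES1, a direct Notch target, fell with DAPT on Jagged1 plates (log2 difference -1.11 ± 0.12 SE, limma adjusted p = 0.0478), the one called of 8 tested Notch targets. It was called under 5 of 23 alternatives (limma adjusted p of 0.0194 to 0.541), with the same direction in all 23. Of the cerebellar granule lineage markers, ZIC1, ZIC2 and PAX6 were present in every library while ATOH1 and NEUROD1 stayed at a mean of 0.131 TPM or less in each line.

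Most genes of restricted tissues are silent in any one cell, and the silent state is passed on through cell division. Genes of the germ line are often kept silent by methylation of cytosines in CpG pairs, and tumour cells can switch them on in a mosaic way. The 10 genes have unrelated jobs: transcription control, N-terminal acetylation, translation, insulin and lipoprotein signalling, matrix and scavenger functions, and actin remodelling.

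The starts of 7 of the 10 genes were in the RefSeq promoter table (build GRCh38.p14), as 300-base windows of 250 bases before and 50 bases after the start. The windows of 4 genes that fell below 1 TPM in all libraries of a line are shown 5′ to 3′ on the gene's own strand, with every CpG pair in capitals, to show how different the starts of genes with this pattern can be.
FOXR2 promoter, chrX:55623150-55623449, plus strand: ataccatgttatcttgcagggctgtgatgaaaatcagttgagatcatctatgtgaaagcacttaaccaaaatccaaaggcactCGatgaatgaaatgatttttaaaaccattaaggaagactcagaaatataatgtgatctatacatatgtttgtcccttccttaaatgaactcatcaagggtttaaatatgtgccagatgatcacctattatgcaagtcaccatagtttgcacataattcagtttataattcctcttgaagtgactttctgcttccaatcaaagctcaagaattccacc
NAA11 promoter, chr4:79326012-79326311, minus strand: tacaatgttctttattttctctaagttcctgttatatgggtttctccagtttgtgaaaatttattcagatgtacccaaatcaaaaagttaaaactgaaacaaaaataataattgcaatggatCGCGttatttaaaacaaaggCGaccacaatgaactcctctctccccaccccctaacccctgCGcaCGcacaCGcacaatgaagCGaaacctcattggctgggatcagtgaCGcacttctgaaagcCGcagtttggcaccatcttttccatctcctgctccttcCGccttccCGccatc
CPXM2 promoter, chr10:123891758-123892057, minus strand: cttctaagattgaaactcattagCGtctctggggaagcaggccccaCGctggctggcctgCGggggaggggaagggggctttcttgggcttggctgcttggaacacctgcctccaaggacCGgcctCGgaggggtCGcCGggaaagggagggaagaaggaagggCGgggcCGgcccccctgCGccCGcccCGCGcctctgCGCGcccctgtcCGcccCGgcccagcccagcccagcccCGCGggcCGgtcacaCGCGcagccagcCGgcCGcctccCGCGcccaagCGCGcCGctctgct
TMEM179 promoter, chr14:104604723-104605022, minus strand: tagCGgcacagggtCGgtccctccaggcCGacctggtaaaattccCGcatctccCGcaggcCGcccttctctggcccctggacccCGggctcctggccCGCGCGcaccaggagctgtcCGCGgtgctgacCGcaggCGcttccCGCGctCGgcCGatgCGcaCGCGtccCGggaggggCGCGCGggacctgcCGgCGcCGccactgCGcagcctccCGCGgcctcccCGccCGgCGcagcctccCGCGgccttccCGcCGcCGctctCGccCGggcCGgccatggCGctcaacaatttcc
The FOXR2 window held 1 CpG pair and 35% G and C, and the NAA11 window 11 pairs and 43.7%. The CPXM2 and TMEM179 windows held 29 and 43 pairs, with 73.7% and 77% G and C. HCLS1, also below 1 TPM in all libraries of a line, had a window that is not shown, with 6 pairs and 45.3% G and C. Over all 35116 windows of the table the median was 14 pairs, the lower quartile 4 and the upper quartile 28. Of the 8 windows of the 7 genes (PLAC8 had 2), 4 passed a CpG limit of at least 50% G and C and an observed over expected ratio of at least 0.6, against 46.9% of all windows. The hexamer TGGGAA, the core of the site bound by the Notch effector RBPJ, was searched on both strands and was in none of the 8 windows, against 24% of all windows. TATAAA, searched likewise, was in the FOXR2 window alone (11.5% of all windows), and CACGTG in none (7.26%). These are matches of letters and say nothing of binding.

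Of the 10 genes 5 met the description strictly, 2 came close to it and 3 did not meet it. With near absent set at under 0.5 TPM in all 4 libraries of a line, C3orf14, PID1, NAA11 and FOXR2 were off in NOTCH2KO and CPXM2 was off in NOTCH1KO. TMEM179 in NOTCH1KO and HCLS1 in NOTCH2KO stayed under 1 TPM. COLEC12 and PLAC8 in WT and EEF1A2 in NOTCH1KO were low but present, with single libraries as high as 2.91, 6.27 and 4.93 TPM, and for these genes "switched off" is not borne out. Values are given in the order Jagged1 with DAPT, Jagged1 with DMSO, Fc with DAPT and Fc with DMSO. The levels chose the genes, so these differences between lines are given without a test.

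**Figure D1:**
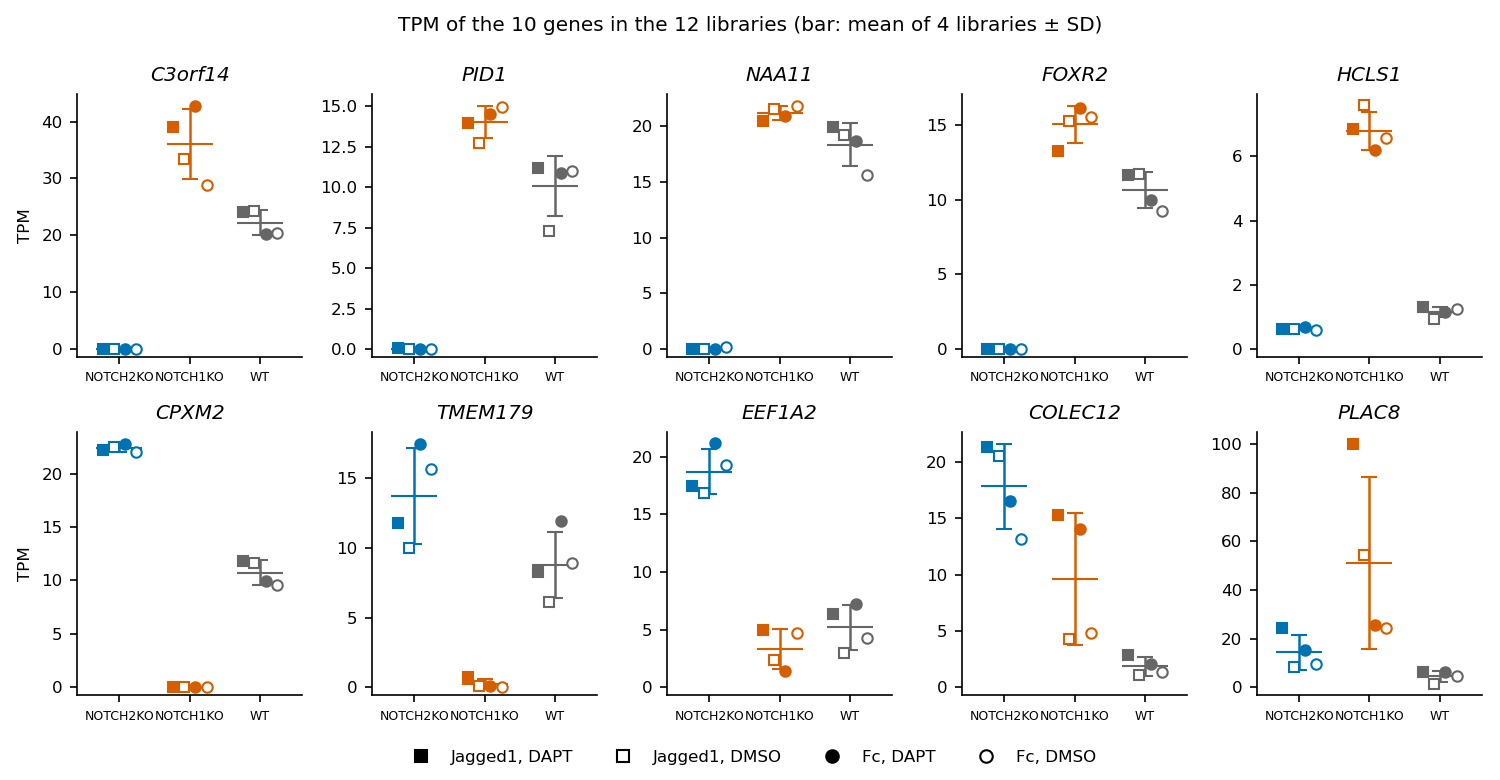
TPM of each gene in the 12 libraries, by line (NOTCH2KO, NOTCH1KO, WT) and culture (symbols), with the mean and SD of the 4 libraries of a line. C3orf14, PID1, NAA11 and FOXR2 lie at the axis in NOTCH2KO and CPXM2 and TMEM179 in NOTCH1KO, while EEF1A2, COLEC12 and PLAC8 have no line at the axis.

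C3orf14, an open reading frame of little known function (chr3:62304648-62321888, plus strand, GRCh37), was at 0.0849, 0.0616, 0.0785 and 0 TPM in NOTCH2KO. It was at 39.1, 33.5, 42.7 and 28.9 TPM in NOTCH1KO and at 24.1, 24.2, 20.2 and 20.4 TPM in WT. Every NOTCH2KO value was under what 1 read in 1 kb is worth in those libraries, and the 3 lines did not overlap. Mean read coverage of C3orf14 was 0 to 0.0341 reads per base in NOTCH2KO, 2.18 to 3.43 in NOTCH1KO and 1.60 to 2.05 in WT. By coverage the gap was thus smaller in proportion than by TPM. PTPRG-AS1, an antisense RNA gene on the opposite strand that overlaps C3orf14, was at 0, 0, 0.165 and 0.411 TPM in NOTCH2KO, at 4.07, 2.13, 4.03 and 4.43 in NOTCH1KO and at 2.14, 2.53, 2.1 and 1.17 in WT. By limma with Benjamini-Hochberg adjustment over all 17621 genes it was lower in NOTCH2KO than in WT (log2 difference -1.38 ± 0.23 SE, adjusted p = 0.00542). The library kit kept strand, but neither labels nor methods say whether strand was used in quantification, so reads of the pair may not be told apart.

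PID1 encodes an adaptor with a phosphotyrosine-binding domain that binds the lipoprotein receptor LRP1 and dampens insulin signalling (chr2:229715242-230136001, minus strand). It was at 0.0729, 0, 0 and 0 TPM in NOTCH2KO, at 13.9, 12.7, 14.5 and 14.9 in NOTCH1KO and at 11.2, 7.32, 10.9 and 11 in WT. Its mean read coverage was low even where it was present, at 0.130 to 0.139 reads per base in NOTCH1KO and 0.0683 to 0.104 in WT. In NOTCH2KO it was at most 0.000759. FOXR2, at similar TPM in WT, had 4.19 to 5.77 reads per base there. The reason for this low coverage was not tested. In NOTCH2KO 3 libraries were listed at 0, and the WT library on Jagged1 with DMSO stood below the other 3 of its line.

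NAA11, a paralogue of the catalytic N-terminal acetyltransferase NAA10 best known from testis (chr4:80146848-80247204, minus strand), was at 0, 0, 0 and 0.149 TPM in NOTCH2KO. It was at 20.4, 21.5, 20.9 and 21.8 TPM in NOTCH1KO and at 19.9, 19.2, 18.7 and 15.6 TPM in WT. NOTCH1KO was the steadiest of its lines, with a coefficient of variation of 2.91% over the 4 cultures. NAA10 itself was at similar levels in all lines, with means of 91.5 TPM in NOTCH2KO, 90.5 in NOTCH1KO and 89.3 in WT. Of the 10 defined germ cell and testis markers none reached the mean of 1 TPM, and their summed mean level was 0.105 TPM in NOTCH2KO, 0.862 in NOTCH1KO and 0.45 in WT, with PRM1, PRM2 and TNP1 listed at 0 in every library.

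FOXR2, a forkhead transcription factor that stabilises MYC proteins and is activated in some childhood brain tumours (chrX:55649833-55652621, plus strand), was at 0.0348, 0, 0.034 and 0 TPM in NOTCH2KO. It was at 13.3, 15.2, 16.1 and 15.6 TPM in NOTCH1KO and at 11.6, 11.8, 9.98 and 9.26 TPM in WT. Its paralogue FOXR1 was listed at 0 in all 12 libraries. The 4 genes off in NOTCH2KO lie on chromosomes 3, 2, 4 and X, and all 4 were higher in every NOTCH1KO library than in any WT library. Presence in another line was part of the choice, and the share of all genes with such a gap was not counted. By another measure, 10.7% of all genes tested were called higher in NOTCH1KO than in WT by limma. A limma call is not such a gap, so that share is no background for the 4 genes.

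HCLS1, an actin-binding relative of cortactin known from blood cells (chr3:121350246-121379774, minus strand), was at 0.631, 0.635, 0.691 and 0.598 TPM in NOTCH2KO. It was at 6.84, 7.59, 6.19 and 6.56 TPM in NOTCH1KO and at 1.30, 0.934, 1.17 and 1.24 TPM in WT. NOTCH1KO stood apart from the other lines, and WT was itself close to 1 TPM, so the gene was raised in one line more than lost in another. The blood cell markers PTPRC and SPI1 were listed at 0 in every library, and the summed level of the 10 blood markers was 44.3 TPM in NOTCH2KO, 61.3 in NOTCH1KO and 46.0 in WT, most of it from LYN, LAPTM5 and LCP1.

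CPXM2, a secreted member of the metallocarboxypeptidase family without known enzyme activity (chr10:125465723-125699783, minus strand), was the mirror image. It was at 0.03, 0, 0 and 0 TPM in NOTCH1KO, at 22.2, 22.5, 22.8 and 22 in NOTCH2KO and at 11.8, 11.6, 9.93 and 9.53 in WT. In NOTCH2KO it hardly moved with the culture, with a coefficient of variation of 1.47%.

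TMEM179, a membrane protein gene of the nervous system (chr14:104941015-105071984, minus strand), was at 0.764, 0.0801, 0.0866 and 0 TPM in NOTCH1KO. It was at 11.8, 10.03, 17.5 and 15.7 TPM in NOTCH2KO and at 8.25, 6.14, 11.9 and 8.89 TPM in WT, so that these lines overlapped. The library at 0.764 TPM kept the gene just outside the limit of 0.5 TPM. The mean read coverage of TMEM179 in that library was 0.0515 reads per base, against 0.0173, 0.0175 and 0 in the other NOTCH1KO libraries and at least 0.454 in every library of the other lines.

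EEF1A2 encodes the form of translation elongation factor 1 alpha that neurons and muscle use (chr20:62119366-62130505, minus strand). It was at 17.5, 16.9, 21.1 and 19.3 TPM in NOTCH2KO, at 4.93, 2.38, 1.41 and 4.70 in NOTCH1KO and at 6.34, 2.94, 7.23 and 4.29 in WT. NOTCH2KO lay above every other library, and NOTCH1KO and WT overlapped. EEF1A1, the form of most other cells, was at 2046 TPM in NOTCH2KO, 2576 in NOTCH1KO and 2160 in WT, so the level of EEF1A2 per length was small beside it in every line.

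COLEC12, a scavenger receptor with a collectin head (chr18:319361-500722, minus strand), was at 21.3, 20.5, 16.5 and 13.1 TPM in NOTCH2KO, at 15.3, 4.32, 14.05 and 4.80 in NOTCH1KO and at 2.91, 1.08, 2.10 and 1.35 in WT. WT was lowest without overlap, and NOTCH2KO and NOTCH1KO overlapped. In NOTCH1KO both DAPT libraries stood well above their DMSO partners.

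PLAC8, a small cysteine-rich protein gene first known from placenta (chr4:84011201-84058228, minus strand), was at 24.2, 8.31, 15.4 and 9.56 TPM in NOTCH2KO, at 100.1, 54.3, 25.5 and 24.3 in NOTCH1KO and at 6.11, 1.31, 6.27 and 4.48 in WT. Among genes and lines with at least 1 TPM in all 4 libraries, its spread in TPM between cultures was the widest, with a coefficient of variation of 69.6% in NOTCH1KO. By mean read coverage the NOTCH1KO libraries lay closer together in proportion, at 10.3, 5.87, 5.09 and 3.99 reads per base. The coefficient was not computed on coverage.

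The pattern was rare and was not shared evenly between the lines. Of 19376 protein-coding genes, 47 (0.243%) were under 0.5 TPM in all 4 libraries of a line and at least 2 TPM in all 4 of another. NOTCH2KO lacked 22 of them (0.114%), NOTCH1KO 26 (0.134%) and WT 3 (0.0155%), a few being absent from more than 1 line. Of the 22 absent from NOTCH2KO, 9 were present at 2 TPM or more in every library of both other lines, against 4 of the 26 absent from NOTCH1KO and none of the 3 absent from WT. The 5 highest absent from NOTCH2KO were DNER at 39.3 TPM, C3orf14 at 36.1, PAGE2B at 23.2, NAA11 at 21.2 and RPL10L at 20.4, all means of NOTCH1KO. DNER is a neuronal transmembrane protein with EGF repeats that has been described in mouse cerebellum as a Notch ligand, PAGE2B a cancer-testis antigen gene and RPL10L a testis copy of a ribosomal protein gene, both with close copies that may share their reads. The 5 highest absent from NOTCH1KO were CPXM2 at 22.4 TPM, PPP2R2C at 11.2, CSMD2 at 10.6, GDA at 9.67 and STMN2 at 9.66, all means of NOTCH2KO. PPP2R2C is a regulatory subunit of protein phosphatase 2A enriched in brain, CSMD2 a synaptic transmembrane protein, GDA the guanine deaminase and STMN2 a microtubule regulator of neurons. The 3 absent from WT were SPANXC, a cancer-testis gene at 179.6 TPM in NOTCH2KO, the leukocyte integrin gene ITGB2 at 8.49 and the chemokine gene CXCL14 at 3.29.

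**Figure D2:**
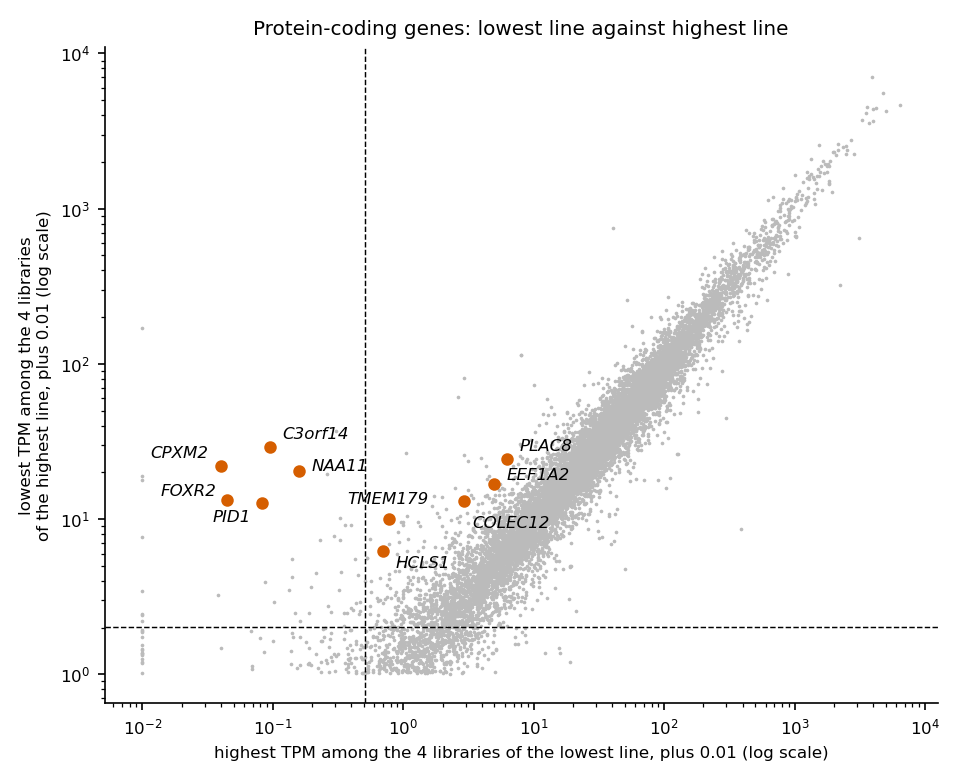
For protein-coding genes with at least 1 TPM in all libraries of their highest line, the highest TPM in the line with the lowest mean (x) against the lowest TPM in the line with the highest mean (y), both plus 0.01 on log scales. Dashed lines mark 0.5 and 2 TPM; C3orf14, NAA11, CPXM2, FOXR2 and PID1 lie in the upper left, TMEM179 and HCLS1 just right of the limit, and COLEC12, EEF1A2 and PLAC8 near the main cloud.

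Between the 4 genes off in NOTCH2KO, Pearson's r of log2(TPM + 1) over the 12 libraries was 0.992 to 0.998. The choice of genes near 0 in the same 4 libraries and present elsewhere largely fixes these values, which rest on 3 lines and not on 12 independent points. The genes closest to FOXR2 among all tested were RPL10L (r = 0.9988), DNER (0.9986) and C3orf14 (0.998), and FOXR2, RPL10L and DNER were also the closest to C3orf14, PID1 and NAA11. CPXM2 was closest to the cancer-testis genes SPANXD (0.994), SPANXA2 and SPANXA1 (0.992 each), whose near-identical copies reads cannot tell apart. The closest to TMEM179 were ALAD (0.986), CAMKK2 (0.979) and ATRAID (0.977), and to HCLS1 PRR9 (0.986), PAGE2B (0.979) and UFC1 (0.977). For EEF1A2 they were BCL2L1 (0.988), CABLES2 (0.987) and ZNF512B (0.972), which all lie on chromosome 20 with it. The nearest tested gene on each side of EEF1A2 had other levels. ARFGAP1 averaged 53.5 TPM in NOTCH2KO, 60.4 in NOTCH1KO and 59.3 in WT, and PPDPF 49.6, 20.4 and 45.8 TPM. A link to the chromosome was not tested. COLEC12 was closest to VAT1L (0.972), ABCC4 (0.971) and INA (0.963), and PLAC8 to H2AFY2 (0.931), DCUN1D2 (0.927) and MRPS9 (0.919).

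The 5 genes off in a knockout line, and TMEM179, under 1 TPM in NOTCH1KO, were each higher on average in the other knockout line than in WT. HCLS1, under 1 TPM in NOTCH2KO and itself close to 1 TPM in WT, was left out. Presence in another line was part of what chose the genes, so these levels are a description with no test. The share of all genes with such a direction was not counted. CPXM2 averaged 22.4 ± 0.329 TPM in NOTCH2KO and 10.7 ± 1.17 TPM in WT (SD, n = 4 each), and C3orf14 36.1 ± 6.10 TPM in NOTCH1KO and 22.2 ± 2.25 TPM in WT. FOXR2 averaged 15.0 ± 1.24 TPM in NOTCH1KO and 10.7 ± 1.23 TPM in WT, PID1 14.03 ± 0.975 and 10.1 ± 1.84 TPM, and NAA11 21.2 ± 0.616 and 18.4 ± 1.92 TPM in the same lines. TMEM179 averaged 13.7 ± 3.43 TPM in NOTCH2KO and 8.80 ± 2.38 TPM in WT. The ratio of the means ran from 1.15 for NAA11 to 2.08 for CPXM2.

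Whether the loss reached beyond the gene was read from its neighbours, the 3 nearest tested protein-coding genes on each side of the 7 genes under 1 TPM. The clearest case was DNER, 86.3 kb from PID1. It was at 0.245, 0.297, 0.114 and 0.214 TPM in NOTCH2KO, at 37.0, 40.2, 38.6 and 41.2 in NOTCH1KO and at 26.0, 25.2, 23.2 and 25.1 in WT. The log2 difference was -4.41 ± 0.08 SE for NOTCH2KO against WT (adjusted p = 9.77e-08) and -5.05 ± 0.08 against NOTCH1KO (adjusted p = 1.79e-08). The next gene on the same side, TRIP12, a ubiquitin ligase 492.6 kb away, did not pass the test (-0.03 and -0.37), so the 2 absent genes were followed by one that was expressed. CCL20, 1033 kb to the other side, was lower in NOTCH2KO than in WT (-1.22 ± 0.23, adjusted p = 0.00842) but was not called against NOTCH1KO, and AGFG1, 1289 kb away, was lower than in NOTCH1KO only (-0.57 ± 0.13, adjusted p = 0.0117).

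**Figure D3:**
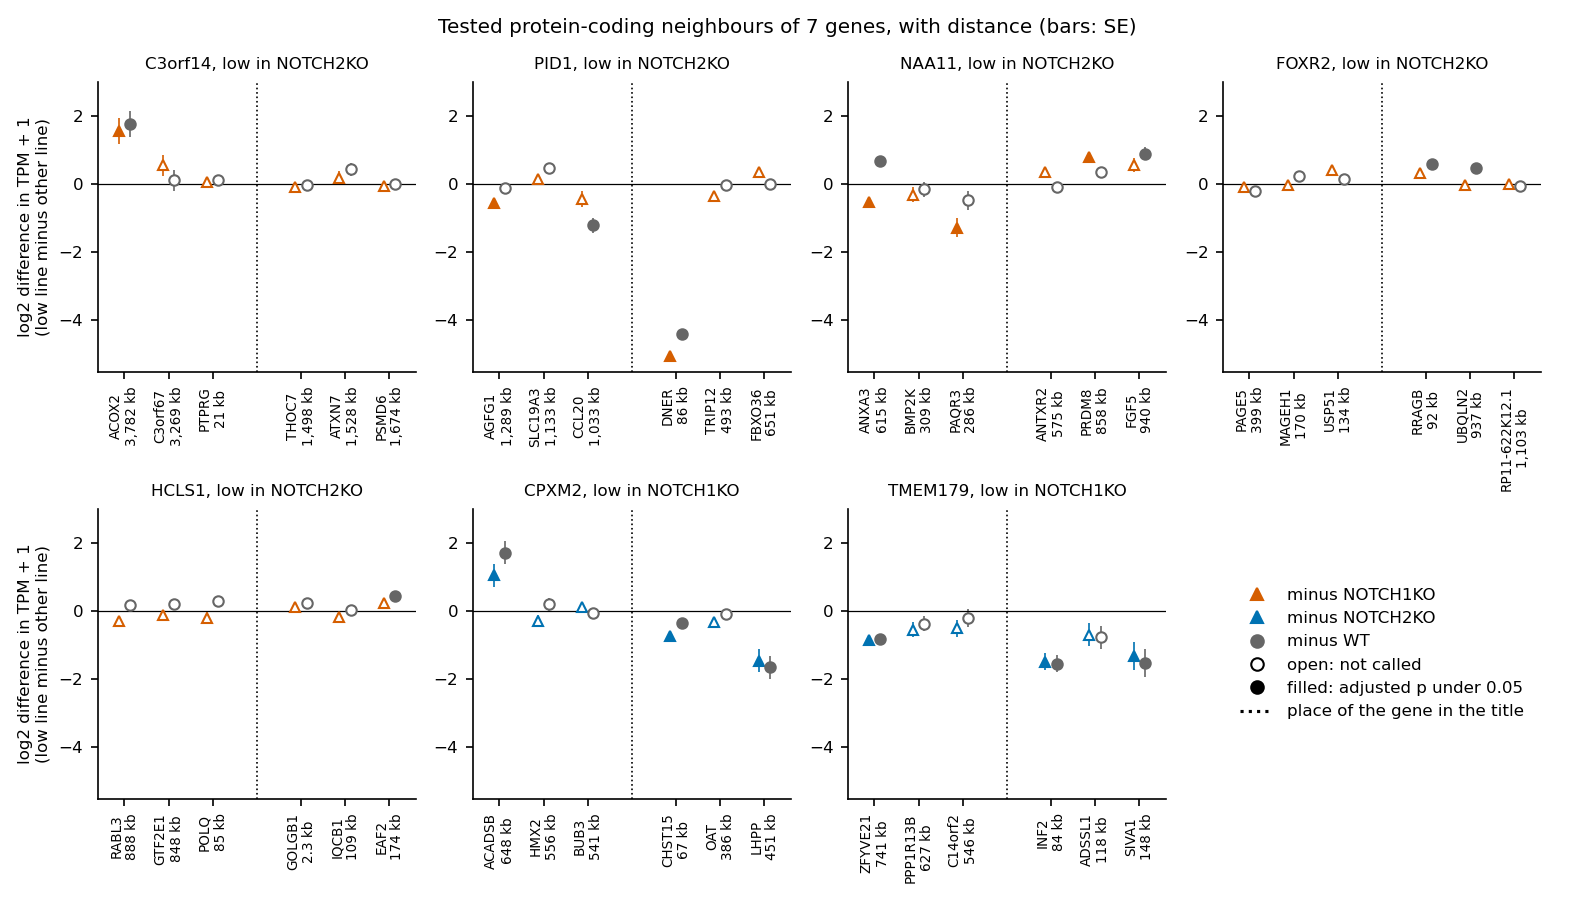
Log2 difference in TPM + 1 (line in which the named gene is low minus each other line, ± SE) for the 3 nearest tested protein-coding genes on each side, in gene order with their distance in kb. DNER beside PID1 lies far below 0, the neighbours of TMEM179 lie below 0, and those of C3orf14, FOXR2 and HCLS1 lie near or above it.

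TMEM179 had lower neighbours on both sides in NOTCH1KO. INF2, a formin that builds actin filaments 84.0 kb away, was at 29.2, 9.08, 11.9 and 19.5 TPM in NOTCH1KO and at 42.6, 37.8, 57.7 and 57.7 TPM in WT, with no overlap (-1.54 ± 0.24, adjusted p = 0.0033). The apoptosis gene SIVA1 (-1.53 ± 0.41, adjusted p = 0.0277) and ZFYVE21, a regulator of cell adhesion sites (-0.83 ± 0.15, adjusted p = 0.00531), were also lower in NOTCH1KO than in WT and lower than in NOTCH2KO. ADSSL1, PPP1R13B and C14orf2 had values of -0.78, -0.37 and -0.21 against WT and were not called. Unlike TMEM179, none of the neighbours was lost: SIVA1 kept 12.98 to 47.2 TPM in NOTCH1KO.

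Beside CPXM2, the phosphatase gene LHPP (-1.65 ± 0.34, adjusted p = 0.0108) and the sulfotransferase gene CHST15, 67.4 kb away (-0.36 ± 0.11, adjusted p = 0.043), were lower in NOTCH1KO than in WT, and both were lower than in NOTCH2KO. ACADSB, an acyl-CoA dehydrogenase gene 647.9 kb to the other side, was higher in NOTCH1KO (1.70 ± 0.34, adjusted p = 0.00882). CHST15 averaged 21.0 TPM in NOTCH1KO and 27.5 TPM in WT.

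No neighbour of C3orf14, FOXR2 or HCLS1 was called lower in NOTCH2KO. PTPRG, a receptor phosphatase gene 21.4 kb from C3orf14, averaged 23.9 TPM in NOTCH2KO and 22.2 TPM in WT (log2 difference 0.13 ± 0.12). The peroxisomal oxidase gene ACOX2, 3782 kb away, was higher in NOTCH2KO than in both other lines (1.75 ± 0.38 against WT). Beside FOXR2, RRAGB (0.57 ± 0.15) and UBQLN2 (0.47 ± 0.08) were higher in NOTCH2KO than in WT. GOLGB1, only 2.27 kb from HCLS1, had a difference of 0.23 ± 0.12 and was not called, and EAF2 was higher by 0.43 ± 0.10. Around NAA11 the directions differed: ANXA3 was higher in NOTCH2KO than in WT (0.67 ± 0.15) and lower than in NOTCH1KO (-0.53 ± 0.15), PAQR3 was lower than in NOTCH1KO (-1.28 ± 0.28), and FGF5 was higher than in WT (0.88 ± 0.19) and PRDM8 higher than in NOTCH1KO (0.78 ± 0.15).

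Over the 42 neighbours and 84 comparisons, 26 were called, 16 of them lower in the line without the gene and 10 higher. By comparison these were 8 of 30 for NOTCH2KO against WT, where 19.3% of all genes were called, 6 of 12 for NOTCH1KO against WT (23.5% of all genes) and 12 of 42 for NOTCH2KO against NOTCH1KO (31.7% of all genes). The 6 neighbours called lower against both other lines were DNER, INF2, SIVA1, ZFYVE21, LHPP and CHST15, and ACOX2 and ACADSB were called higher against both. The share of all genes called in the same direction against both other lines was not counted. Neither these counts nor the split of 16 and 10 can therefore be set against a background. Lower than in WT were 2 of 30 in NOTCH2KO (7.35% of all genes) and 5 of 12 in NOTCH1KO (12.8% of all genes). Of the 6 genes lower against both lines, DNER alone was near absent.

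The calls of the neighbours were not equally firm. Of the 26, 12 held under every alternative run for them, among them both calls of DNER, INF2 and ZFYVE21. The other 14 were lost under at least 1 of the 16 or 17 alternatives. CHST15 lost its call against WT under 12 of 17, among them 10 of the 12 that left out a library. SIVA1 lost its call against NOTCH2KO under 9 and against WT under 4 of 17, the losses against WT coming without WT on Fc with DMSO or DAPT, WT on Jagged1 with DMSO or NOTCH1KO on Fc with DMSO. ACADSB lost its call against NOTCH2KO under 9 of 16, and by coverage its log2 difference for NOTCH2KO against NOTCH1KO was -0.16 in place of -1.04, and that for NOTCH1KO against WT 0.41 in place of 1.70, still called. RRAGB lost its call under 8, EAF2 and ANXA3 (against NOTCH1KO) under 5 each, ACOX2 under 4 against WT and 3 against NOTCH1KO, and FGF5 under 3. LHPP (against NOTCH2KO), AGFG1 and PAQR3 lost a call with coverage alone, and ANXA3 against WT without NOTCH2KO on Jagged1 with DMSO alone.

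The families of the 10 genes did not move as blocks. Over all genes tested 12% were higher and 7.35% lower in NOTCH2KO than in WT, and 10.7% were higher and 12.8% lower in NOTCH1KO. Among 11 other subunits of N-terminal acetyltransferases, none was higher and 1 was lower in NOTCH2KO than in WT (median log2 difference 0.02, against 0.06 over all genes tested). That one was NAA20, the catalytic subunit of NatB (-0.35 ± 0.07, adjusted p = 0.00852). In NOTCH1KO 2 were higher and 1 lower than in WT (median 0.01, against 0.00 over all genes), with NAA16, a paralogue of the auxiliary subunit NAA15, at 1.06 ± 0.25. Of 7 other elongation factor genes, none was called between NOTCH2KO and WT (median -0.07), and EEF1A1 was higher and EEF1G lower in NOTCH1KO than in WT (median 0.03).

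Among 5 tested relatives of CPXM2, CPXM1 (1.14 ± 0.17, adjusted p = 0.00367) and the prohormone processing gene CPE (0.87 ± 0.10) were higher in NOTCH2KO than in WT and none was lower (median 0.87). In NOTCH1KO CPE was higher (0.67 ± 0.10) and none was lower (median -0.12). CPXM1 averaged 5.64 TPM in NOTCH2KO, 1.83 in NOTCH1KO and 2.06 in WT, so the nearest relative was not lost where CPXM2 was. Of the 3 tested collectins and class A scavenger receptors beside COLEC12, none was called between NOTCH2KO and WT (median 0.43), and in NOTCH1KO SCARA3 was higher and the macrophage scavenger receptor MSR1 lower than in WT (-0.74 ± 0.16, median of the 3 at -0.49).

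Of 12 tested genes of cortactin and actin nucleation, 2 were higher and 1 lower in NOTCH2KO than in WT (median 0.12), and 3 were higher and 4 lower in NOTCH1KO (median 0.10). Cortactin itself, CTTN, averaged 91.9 TPM in NOTCH2KO, 93.9 in NOTCH1KO and 89.8 in WT. Among 8 tested endocytic adaptors and receptors around PID1, LRP1 was higher in NOTCH2KO than in WT (0.47 ± 0.12, adjusted p = 0.033) and lower in NOTCH1KO (-0.94 ± 0.12, adjusted p = 0.00166), and LRP6 moved the other way (-0.58 and 0.58, ± 0.12 each). In all, 1 was higher and 1 lower in NOTCH2KO (median 0.11), and 2 were higher and 3 lower in NOTCH1KO (median -0.31). Of 8 tested genes of the MYC network around FOXR2, none was called between NOTCH2KO and WT (median -0.16), and MAX, the partner of MYC, was lower in NOTCH1KO (-1.21 ± 0.34, median of the list -0.06). MYC averaged 51.6 TPM in NOTCH2KO, 31.8 in NOTCH1KO and 32.5 in WT and was not called. TMEM179B and PLAC8L1, relatives of TMEM179 and PLAC8, were not called against WT in either knockout line (medians -0.30 in NOTCH2KO and 0.15 in NOTCH1KO).

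The neuronal markers, read beside TMEM179 and EEF1A2, were mixed against WT. Of 6 tested, SYT1, STMN2 and NEFL were higher in NOTCH2KO than in WT and none was called lower (median 0.51, against 0.06 over all genes, of which 12% were higher and 7.35% lower). SNAP25 averaged 2.71 TPM in NOTCH2KO and 2.82 in WT, SYP 4.29 and 4.69, and TUBB3 67.4 and 50.2, none of them called. Against NOTCH1KO, 5 of the 6 were called higher in NOTCH2KO (SYT1, STMN2, NEFL, SNAP25 and TUBB3). SYP was lower in NOTCH2KO than in NOTCH1KO (-0.46 ± 0.15, limma adjusted p = 0.0417). The median of the 6 was 0.72 there, against 0.07 over all genes, of which 3489 of 17621 were called higher and 2089 lower. In NOTCH1KO NEFL was higher and SNAP25 lower than in WT (median -0.23). The summed level of all 10 neuronal markers was 125.5 TPM in NOTCH2KO, 67.4 in NOTCH1KO and 79.6 in WT, with RBFOX3 at 0.122 TPM or less in each line. The part of these markers in the levels of TMEM179 and EEF1A2 was not tested, and in bulk samples fewer cells of a type and less RNA per cell cannot be told apart. Of 6 tested granule lineage markers 1 was higher and 1 lower in NOTCH2KO and none higher and 2 lower in NOTCH1KO. Of 5 tested blood markers 1 was higher and 1 lower in NOTCH2KO and 2 higher and none lower in NOTCH1KO, of 9 fibroblast markers 1 was higher and 4 lower in NOTCH2KO and 1 higher and 3 lower in NOTCH1KO, and of 6 epithelial markers none was higher in either knockout line, with 1 lower in NOTCH2KO and 2 in NOTCH1KO.

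Notch activation and its block were then compared in the 10 genes over the 3 lines. The genes were not chosen by this contrast. For a gene near absent in all 4 libraries of a line, however, the choice held its response in that line near 0, and the fit averages that line with the others. None of the 10 was called in any of the 4 comparisons by limma. For Jagged1 against Fc in DMSO, none was called and none had an unadjusted p under 0.05, and 0.0114% of all genes were called (2 of 17621, with 1901 at an unadjusted p under 0.05). For DAPT against DMSO on Jagged1 none was called and 2 had an unadjusted p under 0.05, and 0.0284% of all genes were called (5, with 1939 unadjusted). For DAPT against DMSO on Fc (0.0341%, 6 genes, 1082 unadjusted) and for Jagged1 against Fc in DAPT (0.00568%, 1 gene, 836 unadjusted), none of the 10 had an unadjusted p under 0.05. The median log2 difference of the 10 lay between 0.01 and 0.17 in these comparisons, against 0.00 to 0.02 over all genes. With calls this few over the whole table, the count of 0 reads as no more than the background.

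The 2 genes with a low unadjusted p were COLEC12 and PLAC8, both higher with DAPT in 6 of 6 matched pairs of libraries. COLEC12 was at 21.3 TPM with DAPT and 20.5 with DMSO on Jagged1 in NOTCH2KO, at 15.3 and 4.32 in NOTCH1KO and at 2.91 and 1.08 in WT. PLAC8 was at 24.2 and 8.31 TPM in NOTCH2KO, at 100.1 and 54.3 in NOTCH1KO and at 6.11 and 1.31 in WT. On Jagged1 the log2 difference was 0.86 ± 0.31 SE for COLEC12 (limma adjusted p = 0.357) and 1.31 ± 0.46 for PLAC8 (limma adjusted p = 0.354). Over both plates, a comparison added after seeing the data in which 55 genes (0.312%) were called with 1841 at an unadjusted p under 0.05, they were at 0.78 ± 0.22 (adjusted p = 0.232) and 0.84 ± 0.33 (adjusted p = 0.414), again uncalled by limma. TMEM179 was also higher in 6 of 6 pairs (0.32 ± 0.18, adjusted p = 0.589), although in NOTCH1KO it was near the floor of detection. HES1 fell over both plates (-0.96 ± 0.09, limma adjusted p = 0.00496) and was called under 20 of 23 alternatives. The furthest that CPXM2 stood from no difference in the 6 pairs was 0.05 on the log2 scale, with its NOTCH1KO pairs held near 0 by the choice of the gene.

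**Figure D4:**
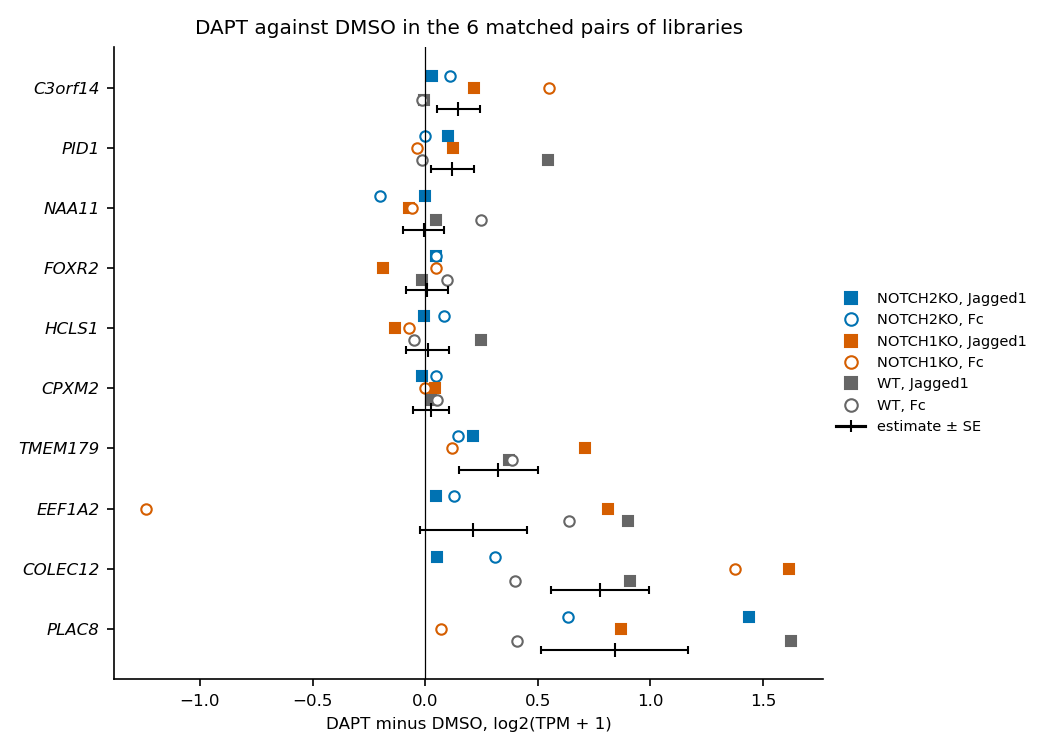
DAPT minus DMSO in log2(TPM + 1) for each gene in the 6 matched pairs of libraries (3 lines on Jagged1 or Fc plates), with the fitted difference over both plates ± SE in black. All 6 pairs of COLEC12, PLAC8 and TMEM179 lie right of 0, and none of the 10 genes passed the adjusted threshold.

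The size of the COLEC12 difference depended on how the gene was measured. In NOTCH1KO the TPM with DAPT was 2.93 times that with DMSO on Fc and 3.54 times on Jagged1, while by mean read coverage of the gene it was 2.06 and 2.25 times. The ratio of coverage to FPKM, which stays constant in a library when one transcript model carries a gene, was 0.671 and 0.666 in the 2 NOTCH1KO libraries with DAPT, 0.702 to 0.756 in NOTCH2KO and 0.911 to 1.07 in the other libraries. In WT the 2 measures gave nearly the same change (2.69 and 2.70 times on Jagged1). For PLAC8 on Jagged1 in NOTCH2KO the TPM with DAPT was 2.92 times that with DMSO and the coverage 1.73 times. The 2 measures lay closer in NOTCH1KO (1.84 and 1.75 times) and in WT (4.68 and 4.55 times). A move between transcript models within either gene was not tested.

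Whether the response to a culture differed between lines was tested by an interaction, with 60 tests over the 10 genes. None passed the adjusted threshold by limma and 7 had an unadjusted p under 0.05. For a gene near absent in a line, the response there was held near 0 by the choice, so its tests against that line say little. Over all genes 0.0114%, 0% and 0.0227% were called for the DAPT response (NOTCH1KO against WT, NOTCH2KO against WT, NOTCH2KO against NOTCH1KO), and 0.0341%, 0.0397% and 0.0454% for the Jagged1 response in the same comparisons, with 592 to 2069 genes at an unadjusted p under 0.05. The Jagged1 response pooled the plates with DMSO and with DAPT, and the DAPT response pooled the Jagged1 and Fc plates. The strongest was the Jagged1 response of PLAC8, which was larger in NOTCH1KO than in WT by 2.17 ± 0.31 on the log2 scale (limma adjusted p = 0.275). It is therefore not the response to active Notch alone. With DAPT PLAC8 was at 100.1 TPM on Jagged1 and 25.5 on Fc in NOTCH1KO, and at 6.11 and 6.27 in WT. On DMSO plates PLAC8 was at 54.3 TPM on Jagged1 and 24.3 on Fc in NOTCH1KO, and at 1.31 on Jagged1 and 4.48 on Fc in WT. By mean read coverage the same libraries were at 5.87 and 3.99 reads per base in NOTCH1KO and at 0.241 and 0.850 in WT, a smaller rise in NOTCH1KO. The interaction was not run on coverage. The DAPT response of COLEC12 was smaller in NOTCH2KO than in NOTCH1KO (-1.31 ± 0.32, limma adjusted p = 0.9987).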

How the data were processed

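RNA of 12 DAOY cultures was sequenced as single reads of 51 bases after poly-A selection with a stranded kit. Per the file headers, the authors deposited 1 table per library with mean coverage, FPKM and TPM for each of 63677 gene identifiers on GRCh37, with bcl2fastq 2.17 named in the processing notes. The aligner, quantifier and use of strand are not given in the sources used here. Rows of 1 identifier were summed. Depth per library was recovered from the ratio of the deposited coverage to the deposited FPKM, taken near its maximum over the rows of a library. No counts were used. The deposited TPM, as log2(TPM + 1), were fitted with limma 3.58.1 (R 4.3.3, trend and Benjamini-Hochberg adjustment over all genes tested) for 17621 genes with a mean of at least 1 TPM, with line and culture as additive terms and 6 residual degrees of freedom. Interactions of line with treatment or plate left 4. Fold changes on this scale understate the change of low genes. With 1 library per line and culture, p-values of the additive fit measure how far the 12 libraries depart from additive effects of line and culture. Such departures mix culture responses that differ between lines with noise. The noise may be technical, since nothing says that cultures were repeated. No pair of the 66 was identical (r = 0.924 to 0.976). The fit was tested on simulated data. Gene types came from GENCODE 29, matched by identifier for 52526 of 63677. Promoter windows came from RefSeq (GRCh38.p14) by symbol, 7 of 10 matched. No coordinates were moved between builds.

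The genes and lists were chosen with earlier results of these data known. Named were the 10 genes, the 3 most correlated tested genes of each, called neighbours, the 5 highest genes of the pattern per line, genes of the fixed lists, and NOTCH1 and NOTCH2. ADSSL1, PPP1R13B, C14orf2, PTPRG, TRIP12, GOLGB1 and the marker genes at 0 were named after their values were seen. Alternatives were a pseudocount of 0.1, no filter or a mean of at least 5 TPM, FPKM or coverage, median-centred libraries, library weights, no line term, each library or line left out, no culture term, 5 neighbours a side, and limits of 0.2, 1 and 5 TPM.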

Additional observations from a re-analysis of the deposited data

Results flagged for a closer look

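In the 30 groups of 4 libraries (10 genes by 3 lines), 5 held a library whose gap to the others took most of the range. Chance flags about 1 group in 20, a rate that does not apply to the 4 of them in lines chosen for being near 0, where 1 trace value is enough. PID1 was at 7.32 TPM in WT on Jagged1 with DMSO, against 10.9 to 11.2 TPM in the other 3 WT libraries. TMEM179 was at 0.764 TPM in NOTCH1KO on Jagged1 with DAPT, against 0 to 0.0866 TPM in the other 3. The other flags were single libraries with a trace of a gene listed at 0 in the rest of the line: PID1 at 0.0729 TPM in NOTCH2KO on Jagged1 with DAPT, NAA11 at 0.149 TPM in NOTCH2KO on Fc with DMSO, and CPXM2 at 0.0300 TPM in NOTCH1KO on Jagged1 with DAPT. No response that differed between lines passed the adjusted threshold in the 60 tests run with limma, and 7 had an unadjusted p under 0.05.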

How the results depend on the processing

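None of the 10 genes was called in any culture comparison under any of the 23 alternatives (1140 values), the lowest limma adjusted p being 0.0628 over both plates. Counts over all genes were small and unstable. For Jagged1 against Fc in DMSO (2 genes) they were 4 with no filter, and 7, 5 and 4 without the WT, NOTCH1KO and NOTCH2KO line. For DAPT against DMSO on Jagged1 (5 genes) they were 0 with no filter or without the NOTCH2KO line, 2 with FPKM, 3 median-centred or without the WT line, 1 with no genotype term and 13 with library weights. For DAPT against DMSO on Fc (6 genes) they were 12 with no filter, 3 with no genotype term and 34 with library weights. For Jagged1 against Fc in DAPT (1 gene) they were 3 with no filter or library weights, 2 at a mean of 5 TPM or with coverage, and 8, 5 and 0 without the WT, NOTCH1KO and NOTCH2KO line. Leaving out 1 library gave 2 to 42, 0 to 118, 3 to 7 and 1 to 4 calls, and the highest of the first 2 ranges came without NOTCH2KO on Jagged1 with DMSO.

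The number of genes absent from a line followed the limits. For NOTCH1KO (26) it was 11 under 0.2 TPM, 69 under 1 TPM, 84 with presence from 1 TPM, 8 from 5 TPM and 16 with FPKM. For NOTCH2KO (22) it was 12, 40, 51 and 10 under the same limits. For WT (3) it was 1 under 0.2 TPM, 29 under 1 TPM, 35 from 1 TPM and 5 with FPKM. Leaving out 1 library gave 27 to 34, 22 to 27 and 3 to 7. The 26 neighbour calls became 17 to 30 without 1 library, the fewest without NOTCH2KO on Fc with DMSO. Over the single genes and comparisons, 66 of 1369 values lost a call and none reversed. The values of the 10 genes among them had no call to lose or reverse. Every loss was therefore among the 26 neighbour calls, and the share of 1369 understates how often those were lost. The libraries of one culture are matched across the lines, and the culture term of the fit pairs them; with no replicate block (the culture term left out, an alternative chosen after seeing the data) there were 23 neighbour calls in place of 26. Depth leaves values under about 0.1 TPM at less than 1 read in 1 kb.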
